A study of Mus musculus with 2 samples.

Results

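The genes Glud1, Slc38a3, Slc9a3, Car4, Car14, Car2 and Slc4a4 serve ammonia production and bicarbonate recovery in the kidney tubule. They are 7 of 21670 protein-coding genes that GENCODE M21 places on chromosomes 1 to 19 and X, taken by name. For each gene the annotated body and 10 kb on each side were examined. Open chromatin there was measured by DNase-seq, in which the enzyme DNase I cuts accessible DNA, so that peaks mark open regions, and a footprint is a short less-cut stretch within a peak. The tissue was whole kidney of female B6CASTF1/J mice, postnatal and 8 to 10 months old, untreated as far as the labels say. B6CASTF1/J is a first-generation cross of C57BL/6J and CAST/EiJ, so 1 chromosome set differs from the reference to which peaks are referred, and reads of that set may map less well. There is 1 group of 2 libraries, biological replicates 1 and 2, each from its own tissue sample but with the same donor entry. The labels do not say whether separate animals were used, and differences between the libraries may include technical spread. Whole kidney mixes many cell types, and fewer cells of a type and less open chromatin per cell cannot be told apart.

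Proximal tubule cells take up glutamine and release ammonium from it in their mitochondria, and new bicarbonate made on the way is returned to the blood. The same cells recover filtered bicarbonate. Protons leave through the apical membrane, carbonic anhydrases interconvert carbon dioxide and bicarbonate on both sides of it, and bicarbonate leaves across the basolateral membrane with sodium.

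The inferred library sizes were alike, at 119.9 M tags in replicate 2 and 120.9 M in replicate 1. These sizes hold only if the smallest step of the deposited signal stands for 1 tag and the signal is scaled to tags per M. That scaling was not given, so the similar values do not show equal depth. The longer peak lists of replicate 2 and replicate 1 held 124976 and 137060 peaks on these chromosomes. Overlapping peaks of both libraries made 96735 shared regions. Of these, 19360 overlapped a promoter window, set as the 500 bases on each side of a protein-coding transcription start site (TSS), and the other 77375 are called distal. A region carries the highest signal of each library, in the deposited unit, and its mean ± SD is over the 2 libraries. Promoters of proximal tubule markers were open in 7 of 7 cases, as were 3 of 3 of the thick ascending limb, 3 of 3 of the distal convoluted tubule and 3 of 3 of endothelium. Principal cells had 2 of 3 with none at Aqp2, and intercalated cells had 2 of 3 with none at Slc4a1. Podocytes had 1 of 3, immune cells 0 of 3, neurons 0 of 3, and erythroid cells and striated muscle 1 of 3 each.

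All 7 genes had an open promoter, meaning a shared region in the window of at least 1 of their TSSs. Over all protein-coding genes the share was 63.0%. It was 32.0% for genes with CpG-poor promoters, here Slc38a3 and Car14, and 91.7% for the others. The genes were picked with earlier results of these data known, so this count and the others set beside all genes below are descriptions. Most of the 7 promoters were weak ones: 6 of 7 lay below the median of open genes, and the median of the 7 was 2.18 against 4.78 for all open genes. In order of the mean, the strongest promoter region stood at 8.56 for Glud1, 3.85 for Slc4a4, 2.37 for Slc9a3, 2.18 for Car2, 1.32 for Car14, 1.08 for Slc38a3 and 0.984 for Car4. Of neighbours in this order, the values of Slc9a3 and Car2 overlapped between libraries and those of the others did not, which with 2 libraries is a weak separation. The promoters of Slc38a3 and Car4 were in the shorter list of replicate 1 but not in that of replicate 2. Of all 71 promoter and distal regions of the 7 genes, 39 overlapped a peak of both shorter lists, against 67.9% of all shared regions.

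The windows held 73 shared regions. Of these 13 were promoter regions of the 7 genes, 58 were distal, and a further pair in the Car14 window lay in the promoter of its neighbour Aph1a. Distal regions lay in introns (35), downstream (12), upstream (8) and over coding exons (3). Each of the 7 genes had at least 4, which 28.5% of all genes had, while 72.4% had at least 1. With a promoter window of 2000 bases 4 of the 7 genes still had 4 or more, against 21.9% of all genes. In the shorter lists 4 of 7 did, against 16.9%, and in the gene body alone 2 of 7, against 16.1%. When regions nearer to or inside another gene were left out 4 of 7 did, a count not made for all genes. The median was 6 per gene against 2 over all genes, and 14.7 per 100 kb of window against 3.79. The distal regions had a median signal of 1.38, against 0.918 for all distal regions, and 36 of 58 were above it. In 6 of the 7 genes the strongest distal region exceeded the strongest promoter region, the exception being Glud1. With a promoter window of 2000 bases this held for 4 of 7, since Car4 and Car14 turned. Among all 11749 genes with an open promoter and a distal region, 28.0% showed this, with 45.5% of CpG-poor and 22.5% of other genes. Of the 58 distal regions 8 lay inside the body of another gene, so a region near a gene is not shown to act on it.

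**Figure D1:**
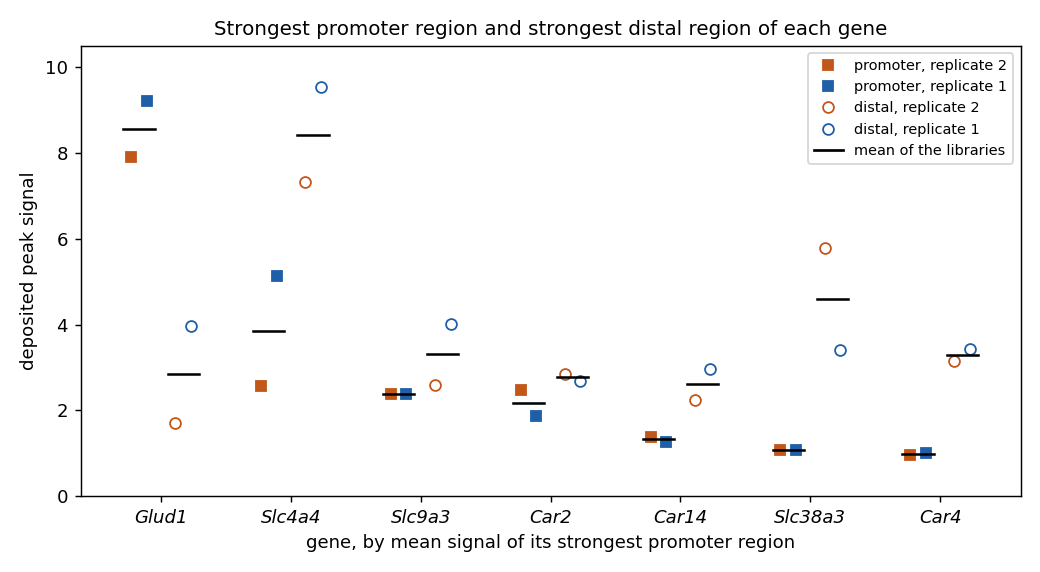
Deposited peak signal (vertical axis, no further unit given) of the strongest promoter region (filled squares) and the strongest distal region (open circles) of each gene, for replicate 2 and replicate 1, with lines at the mean of the libraries. The distal mean lies above the promoter mean for every gene but Glud1, and the Slc4a4 distal region, at 8.43, is close to the Glud1 promoter, at 8.56.

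The sequences below show the sites on which the results turn, 5′ to 3′ on the strand of the gene. Capitals mark bases inside a footprint found in both libraries, unless said otherwise. Such a footprint is the full span of the overlapping footprints of the libraries, so some of its bases may be listed in a single library. The widths given are those of the span. The RefSeq promoter table of GRCm38.p6 holds 6 entries for 5 of the 7 genes, each running from 250 bases before to 50 bases after a start. All 6 equal the genome at their coordinates. Slc38a3 and Car2 have no entry, and their sites were read from the genome of the same build. The pair of Slc4a4 starts comes first because the internal start was the stronger of the pair.
Slc4a4 internal start, chr5:89027716-89028015, plus strand: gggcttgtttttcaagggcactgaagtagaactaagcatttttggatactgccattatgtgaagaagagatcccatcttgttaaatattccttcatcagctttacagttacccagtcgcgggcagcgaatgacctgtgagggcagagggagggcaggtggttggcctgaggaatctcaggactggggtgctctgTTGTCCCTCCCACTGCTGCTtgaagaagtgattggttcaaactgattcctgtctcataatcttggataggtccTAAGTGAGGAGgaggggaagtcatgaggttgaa
Slc4a4 upstream start, chr5:88887010-88887309, plus strand: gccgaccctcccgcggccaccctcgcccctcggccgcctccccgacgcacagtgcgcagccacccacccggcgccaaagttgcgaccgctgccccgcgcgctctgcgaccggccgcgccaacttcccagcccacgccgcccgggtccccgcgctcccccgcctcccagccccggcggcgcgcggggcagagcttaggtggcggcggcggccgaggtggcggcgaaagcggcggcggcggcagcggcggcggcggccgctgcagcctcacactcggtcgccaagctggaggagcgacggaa
Slc4a4 distal region in intron 1, chr5:88929821-88930060, plus strand: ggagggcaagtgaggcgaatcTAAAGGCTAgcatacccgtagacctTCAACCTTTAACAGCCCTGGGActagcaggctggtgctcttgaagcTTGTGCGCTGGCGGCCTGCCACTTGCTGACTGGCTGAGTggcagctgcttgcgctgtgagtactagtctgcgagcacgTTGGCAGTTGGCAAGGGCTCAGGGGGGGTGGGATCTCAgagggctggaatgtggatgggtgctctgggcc
Glud1 start, chr14:34310477-34310776, plus strand: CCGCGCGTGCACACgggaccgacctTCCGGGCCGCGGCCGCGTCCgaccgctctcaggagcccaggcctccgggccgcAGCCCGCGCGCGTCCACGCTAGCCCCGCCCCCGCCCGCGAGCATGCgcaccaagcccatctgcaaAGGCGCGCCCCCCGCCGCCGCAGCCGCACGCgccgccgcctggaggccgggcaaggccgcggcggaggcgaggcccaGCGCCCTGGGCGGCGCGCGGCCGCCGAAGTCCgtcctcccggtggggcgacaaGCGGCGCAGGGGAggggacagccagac
Slc9a3 start, chr13:74121163-74121462, plus strand: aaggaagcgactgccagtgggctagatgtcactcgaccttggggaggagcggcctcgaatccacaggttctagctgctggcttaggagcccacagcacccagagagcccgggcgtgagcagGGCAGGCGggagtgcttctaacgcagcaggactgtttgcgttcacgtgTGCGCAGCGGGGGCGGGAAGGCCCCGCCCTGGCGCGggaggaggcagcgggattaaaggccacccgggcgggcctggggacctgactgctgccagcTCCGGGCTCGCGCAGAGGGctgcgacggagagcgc
Car4 distal region in intron 1, chr11:84959701-84960000, plus strand: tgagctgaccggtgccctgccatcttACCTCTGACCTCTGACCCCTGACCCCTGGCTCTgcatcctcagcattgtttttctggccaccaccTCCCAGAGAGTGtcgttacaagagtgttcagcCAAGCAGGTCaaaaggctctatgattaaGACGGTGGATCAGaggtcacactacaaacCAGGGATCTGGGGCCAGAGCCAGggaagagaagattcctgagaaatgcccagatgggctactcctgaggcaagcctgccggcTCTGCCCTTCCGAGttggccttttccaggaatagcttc
Car2 promoter region, chr3:14886081-14886320, plus strand: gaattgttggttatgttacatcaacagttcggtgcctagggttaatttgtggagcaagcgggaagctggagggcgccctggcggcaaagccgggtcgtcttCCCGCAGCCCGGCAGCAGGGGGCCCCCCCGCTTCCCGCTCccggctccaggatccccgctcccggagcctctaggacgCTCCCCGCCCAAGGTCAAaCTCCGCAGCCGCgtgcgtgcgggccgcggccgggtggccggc

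The internal Slc4a4 start has 3 CpG pairs in its 300 bases and a GC content of 48.3%. The upstream Slc4a4 sequence surrounds the RefSeq start at base 88887260, and has 50 CpG pairs, a GC content of 80.0% and no shared footprint. The GENCODE gene start, at base 88886818, lies before this sequence and inside the shared open region, chr5:88886336-88887060. That region reaches only the first bases of the sequence shown. Replicate 2 alone had 3 further weak peaks over and just past the RefSeq start. The Glud1 start has 51 CpG pairs, a GC content of 81.0%, and footprints over 156 of its 300 bases.

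Glud1 encodes glutamate dehydrogenase, the mitochondrial enzyme that releases ammonium from glutamate. Its gene runs over chr14:34310727-34345265. The promoter region at chr14:34310361-34310860 had a signal of 7.90 in replicate 2 and 9.22 in replicate 1 (8.56 ± 0.930, SD, n = 2). It was the strongest promoter of the 7 and lay at percentile 74.4 of open genes. The same region lies in the promoter window of Shld2, so its signal is not that of Glud1 alone. It held 8 shared footprints, more than any other region of the 7 genes. One of 46 bases carries the letters GGGCGG on the minus strand at 2 places, the core of sites bound by SP and KLF factors. A weaker region in the first coding exon had 1.20 in replicate 2 and 0.943 in replicate 1, with no shared footprint. The second annotated start, of transcript Glud1-205, had no region.

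Of the 8 distal regions of Glud1, the strongest lay in intron 1 at chr14:34312361-34312680. Its signal was 1.72 in replicate 2 and 3.98 in replicate 1, a log2 ratio of -1.21. That is more than the 2-fold by which 11.9% of all shared regions differed. Its neighbour at chr14:34311801-34312020, also in intron 1, had 1.28 in replicate 2 and 2.54 in replicate 1. Both were lower in replicate 2, while the promoter beside them differed by a log2 ratio of -0.22. The third, at chr14:34354541-34354820, had 1.50 in replicate 2 and 2.03 in replicate 1 and lies inside the downstream gene Fam25c. The other 5 had mean signals of 0.627 to 1.28. Of the 8, 3 are both nearest to a Glud1 start and in no other gene body, all in the Glud1 introns, and the other 5 lie inside Fam25c or nearest to its start.

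Slc38a3 encodes SNAT3, a glutamine transporter of the basolateral membrane through which the proximal tubule takes up glutamine. The gene lies on the minus strand at chr9:107650634-107669530 and has 7 annotated coding starts. The strongest promoter region, chr9:107667241-107667580, had 1.08 in replicate 2 and 1.07 in replicate 1 (1.08 ± 0.00638, SD, n = 2). It lies at the starts of transcripts Slc38a3-201 and Slc38a3-209, inside intron 1 of the longest coding transcript. A second region just upstream of the 5′ end of the gene had 0.692 in replicate 2 and 1.00 in replicate 1. No region lay at the starts of Slc38a3-202, Slc38a3-203, Slc38a3-207 and Slc38a3-214. One shared footprint of 19 bases in the stronger region is shown with 5 bases on each side and GGGCGG in capitals.
Slc38a3 promoter footprint, chr9:107667418-107667446, minus strand: gccggGGGCGGgccagGGGCGGggccggg

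The open sites around Slc38a3 lay mostly outside it: none of its 7 distal regions was in the gene body. The strongest, past the 3′ end at chr9:107644641-107644880, had 5.79 in replicate 2 and 3.41 in replicate 1 (4.60 ± 1.68). It and the third strongest, chr9:107645661-107645880, with 2.83 in replicate 2 and 1.92 in replicate 1, have Gnai2 as the nearest gene by TSS. The second, chr9:107678221-107678420, lies upstream inside Gnat1, with 4.16 in replicate 2 and 1.85 in replicate 1. It was higher in replicate 2 by a log2 ratio of 1.17. Its neighbour at chr9:107676041-107676280, also inside Gnat1, had 1.96 in replicate 2 and 0.943 in replicate 1, a log2 ratio of 1.06. These are the regions of Slc38a3 that differed more than 2-fold, and 1 of the 7 distal regions is both nearest to a Slc38a3 start and in no other gene body. The region chr9:107678221-107678420 holds a footprint of 49 bases with the letters CCAC, any base, AGG, any base, GGC of the insulator protein CTCF, shown in capitals with 5 bases added on each side of the footprint.
Slc38a3 upstream footprint, chr9:107678290-107678348, minus strand: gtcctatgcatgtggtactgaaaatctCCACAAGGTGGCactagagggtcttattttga

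Slc9a3 encodes NHE3, the sodium-proton exchanger of the brush border that carries most proton secretion in the proximal tubule. Its promoter region at chr13:74121241-74121540 had 2.38 in replicate 2 and 2.37 in replicate 1 (2.37 ± 0.00229, SD, n = 2), at percentile 27.9 of open genes. That difference is within counting error for 285 tags in replicate 2 and 287 in replicate 1. The region held 3 shared footprints. The longest, of 36 bases, spans the letters GGGCGG once on each strand and stands in capitals in the sequence above. The strongest distal region, in intron 1 at chr13:74144141-74144580, had 2.59 in replicate 2 and 4.03 in replicate 1 (3.31 ± 1.01) and held 4 shared footprints. The next, at chr13:74130001-74130220, had 2.46 in replicate 2 and 2.43 in replicate 1, and the third, at chr13:74127701-74127900, had 1.35 in replicate 2 and 1.33 in replicate 1. All 3 lie in intron 1. No shared region of the gene differed more than 2-fold between libraries. Replicate 1 alone had 6 further peaks, all in introns, and replicate 2 alone had 0. The highest of the 6, at chr13:74140941-74141140, had 1.64, above the third shared region in that library. The other 3 distal regions had mean signals of 0.602 to 1.04.

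Car4 and Car14 encode membrane-bound carbonic anhydrases with their active sites outside the cell, which act on bicarbonate in the tubule fluid and at the basolateral side. Car4 had the weakest promoter of the 7. At chr11:84957641-84957880 it had 0.950 in replicate 2 and 1.02 in replicate 1 (0.984 ± 0.0470, SD, n = 2), at percentile 11.3 of open genes. A second promoter region, at the internal start of Car4-202, had 0.725 in replicate 2 and 1.03 in replicate 1. Distal sites were dense: 6 in a window of 28.3 kb, or 21.2 per 100 kb, percentile 98.2 of all genes. The strongest, in intron 1 at chr11:84959701-84960000, had 3.14 in replicate 2 and 3.43 in replicate 1 (3.29 ± 0.204) and held 6 shared footprints. The first of these, of 33 bases, contains TGACC 3 times, and once as TGACCT, the reverse of the nuclear receptor element AGGTCA. A further pair had nearly the same mean, at chr11:84948641-84948820 with 2.17 in replicate 2 and 2.55 in replicate 1, and at chr11:84968821-84969060 with 2.20 in replicate 2 and 2.51 in replicate 1. They lie upstream and downstream of the gene. The other 3 ranged from 0.486 to 1.59. Of the 8 regions of Car4, 7 were lower in replicate 2, none by more than 2-fold. A promoter window of 2000 bases would have taken in the intron 1 site and put Car4 at 3.29. It would also have left Car4 with 3 distal regions, and the gene body alone held 3 of the 6.

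Car14 had 1.38 in replicate 2 and 1.27 in replicate 1 (1.32 ± 0.0724, SD, n = 2) in its main promoter region, chr3:95904601-95904920, and 0.950 and 0.926 in a second one just upstream. The strongest distal region, in intron 1 at chr3:95903781-95904040, had 2.25 in replicate 2 and 2.98 in replicate 1. The region over coding exon 2, chr3:95901761-95902260, had 2.13 in replicate 2 and 2.50 in replicate 1. The third, chr3:95887681-95887880, had 2.27 in replicate 2 and 2.21 in replicate 1 and lies inside another gene downstream. The gene is short, and the strongest signal in its window belonged to the promoter of Aph1a, with 10.3 in replicate 2 and 14.4 in replicate 1. The window also differed between the libraries in the extent of open bases. At a false discovery rate (FDR) of up to 0.05 the authors' files listed 3301 of its bases in replicate 2 and 7929 in replicate 1, or 12.3% and 29.4% of it. Over all these chromosomes the files listed 1.66% and 1.68%. Of 5163 bases listed in replicate 1 alone, 3411 lay past the 3′ end of Car14, toward Aph1a, 1563 in its body and 189 upstream. The other 6 windows had between 2.80% (Slc9a3) and 8.92% (Car4) listed in replicate 2, and between 3.06% (Slc4a4) and 10.7% (Car4) in replicate 1.

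Car2 encodes the soluble carbonic anhydrase of the cytoplasm, which is abundant in proximal tubule and intercalated cells. Its 2 promoter regions lie at neighbouring starts. The stronger, chr3:14886081-14886320, had 2.48 in replicate 2 and 1.87 in replicate 1 (2.18 ± 0.436, SD, n = 2) and 3 shared footprints. The other, chr3:14886441-14886840, had 1.89 in replicate 2 and 1.47 in replicate 1. Both were higher in replicate 2, by log2 ratios of 0.41 and 0.36. A footprint of the stronger region contains GGGCGG on the minus strand close to the letters AGGTCA. Car2 had a single strong distal region, over coding exon 6 at chr3:14897861-14898080, with 2.86 in replicate 2 and 2.69 in replicate 1 (2.77 ± 0.122). The next, downstream at chr3:14904221-14904480, had 0.692 in replicate 2 and 1.37 in replicate 1. The third, in intron 2 at chr3:14889677-14889940, had 0.584 in replicate 2 and 0.637 in replicate 1. The last had a mean of 0.515.

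**Figure D2:**
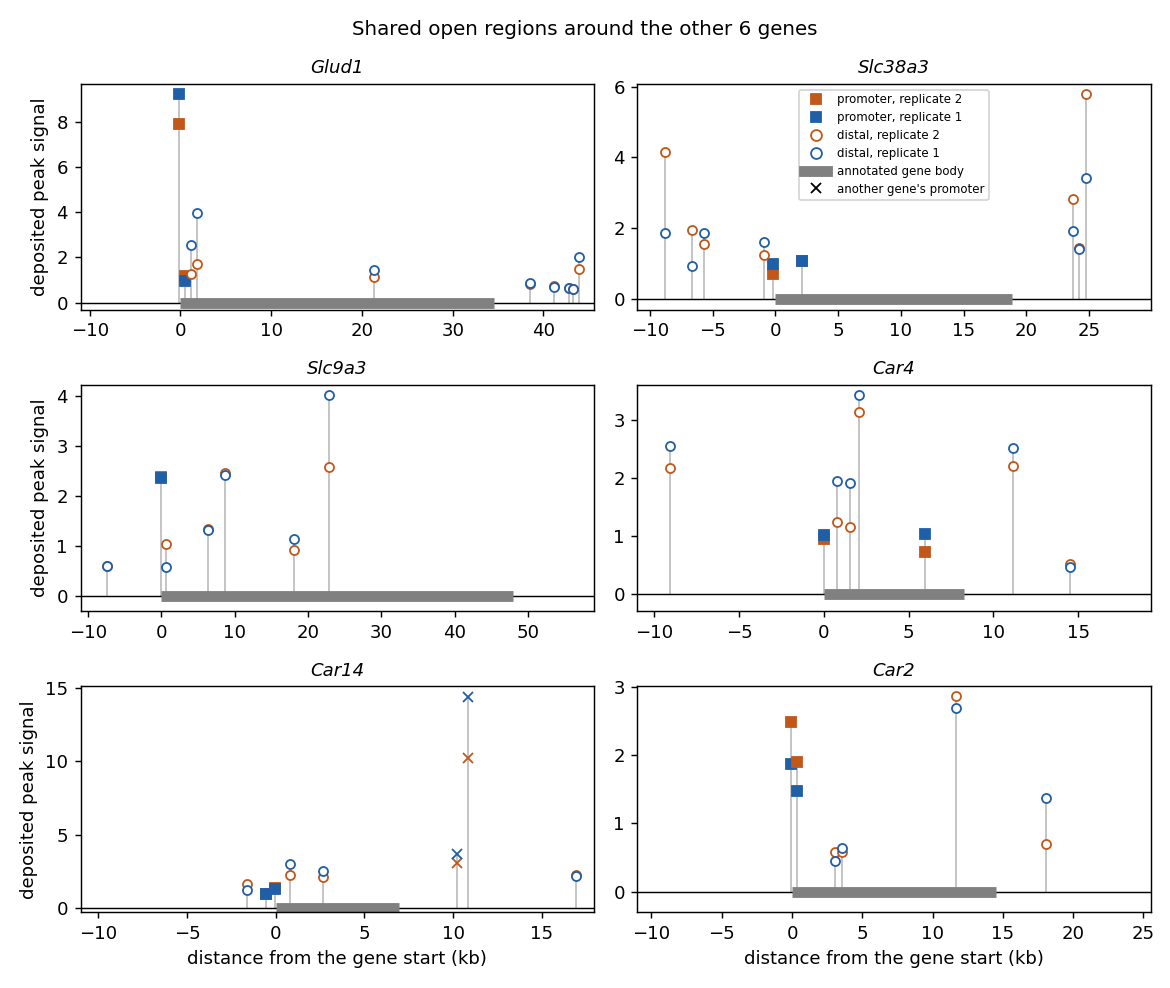
Deposited peak signal (vertical axis) of every shared region around Glud1, Slc38a3, Slc9a3, Car4, Car14 and Car2 by distance of its centre from the gene start in kb, with the gene running to the right, for replicate 2 and replicate 1. Squares are promoter regions, circles distal ones and crosses the promoter regions of another gene, which reach 14.4 in the Car14 panel. The grey bar is the gene body, which holds no distal region in the Slc38a3 panel.

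Slc4a4 encodes NBCe1, the sodium-bicarbonate cotransporter through which bicarbonate leaves proximal tubule cells on the basolateral side. The gene is long, chr5:88886818-89239653, and makes a longer variant from its upstream start and the kidney variant, NBCe1-A, from an internal start 141 kb into the gene. Both starts were open, and the internal one was the stronger. Its region, chr5:89027601-89028040, lies at the starts of transcripts Slc4a4-201, Slc4a4-203 and Slc4a4-204, inside intron 3 of the longest coding transcript. It had 2.58 in replicate 2 and 5.13 in replicate 1 (3.85 ± 1.80, SD, n = 2) and 3 shared footprints. The upstream region, chr5:88886336-88887060, had 0.475 in replicate 2 and 0.579 in replicate 1 (0.527 ± 0.0732) and no shared footprint. Replicate 2 had 3 further peaks in the window of the upstream starts, with signals between 0.267 and 0.375, that replicate 1 did not have. The internal region was thus 5.42 times as strong as the upstream one in replicate 2 and 8.86 times in replicate 1. The upstream region lay at percentile 7.41 of all promoter regions. CpG content ran the other way, with an observed over expected ratio of 0.31 around the internal start and 0.92 around the upstream start. No region lay at the start of Slc4a4-206.

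The strongest distal region of the 7 genes lay in intron 1 of Slc4a4, 43.1 kb past the upstream start. At chr5:88929821-88930060 it had 7.33 in replicate 2 and 9.53 in replicate 1 (8.43 ± 1.56, SD, n = 2). It ranked at percentile 99.4 of all distal regions and above both Slc4a4 promoter regions in both libraries. It held 4 shared footprints, of 9, 22, 39 and 38 bases. The next, in intron 3, were chr5:88990261-88990520 with 2.60 in replicate 2 and 3.43 in replicate 1, and chr5:88961481-88961780 with 1.83 in replicate 2 and 3.23 in replicate 1. The other 20 had means of 0.373 to 2.26, and 13 of the 23 distal regions were under 1. Slc4a4 had the most distal regions of the 7, at percentile 99.2 of all genes, but at 6.17 per 100 kb the lowest density. Of the 24 regions other than the internal promoter, 12 lay before it and 12 after it.

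Most of the Slc4a4 regions were lower in replicate 2. This held for 18 of 25, with a median log2 ratio of -0.31, and for 9 of the 11 with a mean signal of 1 or more. The internal promoter fell just short of 2-fold, at a log2 ratio of -0.99. A weak region upstream of the gene, chr5:88884161-88884360, went the other way, with 1.23 in replicate 2 and 0.480 in replicate 1, a log2 ratio of 1.35.

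**Figure D3:**
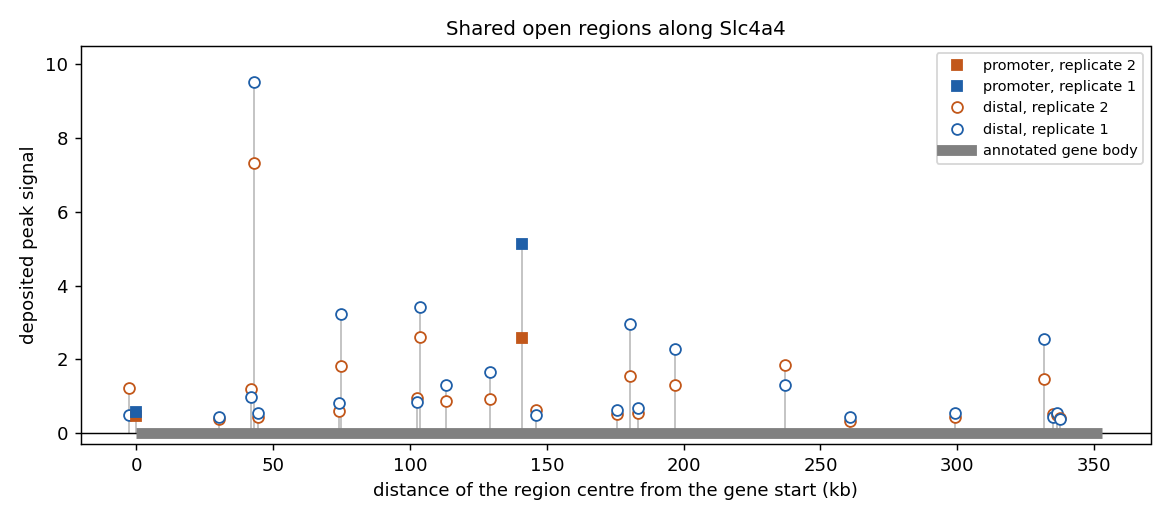
Deposited peak signal (vertical axis) of the 25 shared regions along Slc4a4 by distance of the region centre from the gene start in kb, for replicate 2 and replicate 1. Filled squares are promoter regions, open circles distal regions, and the grey bar the gene body. The promoter region at 141 kb stands well above the one at the gene start, and the tallest region is the distal one at 43.1 kb.

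The libraries were compared over the 71 promoter and distal regions of the 7 genes. Replicate 2 over replicate 1 gave a median log2 ratio of -0.13, against -0.01 over all shared regions, where the SD was 0.63. Signal was lower in replicate 2 in 41 regions and higher in 30, and 50.6% of all shared regions were lower. The SD over the member regions was 0.51, above the median SE of 0.16 from counting error, taking a step as 1 tag. Of the 71, 4 differed more than 2-fold, against 11.9% of all shared regions. Promoters of 5 of 7 proximal tubule markers were also lower in replicate 2, with a median log2 ratio of -0.21, and 3 of 3 of the thick ascending limb, with -0.69. The 2 open markers of intercalated cells were lower as well, with -0.47, and the 2 of principal cells were higher, with 0.39. Medians for the distal convoluted tubule, at 0.02, and endothelium, at 0.09, were small, but their markers went both ways, with 1 of 3 lower in each. Slc12a3 of the distal convoluted tubule was lower, with 1.21 in replicate 2 and 1.82 in replicate 1. Tie1 of endothelium was lower too, with 1.82 and 3.31, and Kdr was higher, with 1.51 and 0.976. Emx1, Pvalb and Pecam1 were higher by less. The part of tissue makeup in the differences was not tested.

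**Figure D4:**
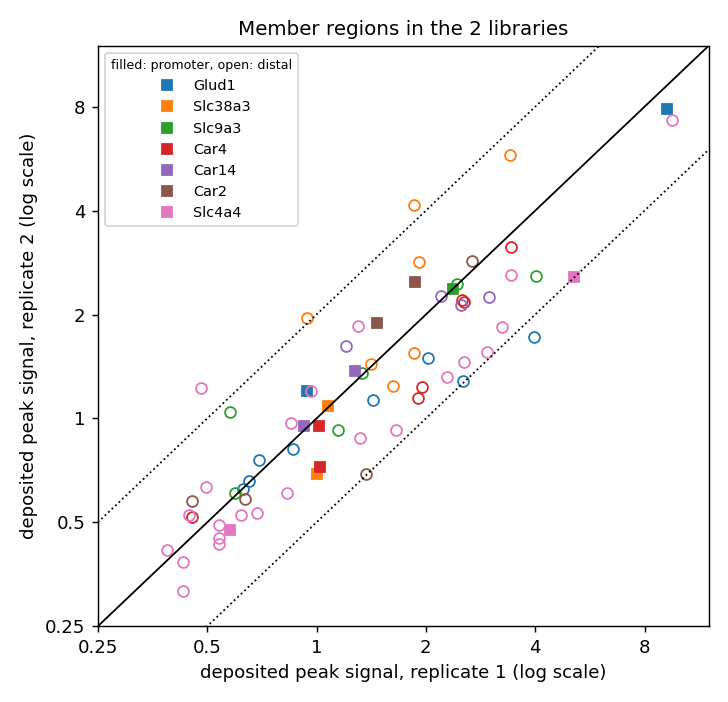
Deposited peak signal of the 71 regions in replicate 2 (vertical, log scale) and replicate 1 (horizontal, log scale), coloured by gene, filled for promoters and open for distal regions. The solid line marks equal signal and the dotted lines a 2-fold difference, which 4 regions exceed.

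Footprints found in both libraries numbered 106 in these regions, 25 in promoter and 81 in distal ones. Replicate 2 listed 193 in them, shared or not, and replicate 1 listed 213. At least 1 was present in 9 of 13 promoter regions, against 77.4% of all promoter regions, and in 40 of 58 distal regions, against 63.2% of all distal regions. Every one of the 22 regions with a mean signal of 2 or more had a shared footprint, as did 10 of the 27 with a mean under 1. The shares over all shared regions at these signal levels were not counted, so this is not shown to be particular to the 7 genes. Footprint widths ran from 7 to 54 bases, with a median of 16 against 20 over all shared footprints.

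A search for 15 consensus motifs covered 300 bases around each region centre, on both strands. Counts were small, and some lay near the share over all regions and others did not. GGGCGG was in 6 of 13 promoter regions, and in 4 of them it lay in a shared footprint with 5 bases added on each side, against 60.4% and 39.8% of all promoter regions. Of the 58 distal regions 1 had it, against 11.4%. The hepatocyte nuclear factor letters GTTAAT, any base, ATT (HNF1) were in 0 promoter and 3 of 58 distal regions, against 0.434% and 1.48%. CAAAGTCCA (HNF4) was in 0 promoter and 2 distal regions, against 0.687% and 1.88%. None of these HNF matches lay in a shared footprint. The AP-1 letters TGANTCA were in 10 of 58 distal regions, 3 of them in a shared footprint, against 10.8% and 0.993%, with the same added bases. The AGGTCA element of nuclear receptors was in 5 of 13 promoter and 18 of 58 distal regions, against 13.6% and 26.9%, and CCAAT (NFY) in 6 and 17, against 33.9% and 32.0%. TCAAGGTCA (ERR), which contains AGGTCA, was in no region of the 7 genes, against 0.320% of promoter and 1.06% of distal regions. The others searched were CCGGAAG (ETS), CACGTG (E-box), TGTTTAC (FOX), TGACGTCA (CREB), TTGCGCAA (CEBP), the CTCF letters, GCGCA, any base, GCGC (NRF1), and ACA, 3 bases of any kind, TGT, any base, C (GR). Of these, CACGTG was in 7 of 58 distal regions, against 6.72%, TGTTTAC in 5, against 4.91%, CCGGAAG in 2, against 2.61%, and the GR letters in 0, against 4.38%. Among the 13 promoter regions CACGTG was in 2, against 9.69%, CCGGAAG in 2, against 14.0%, and the GR letters in 1, against 1.81%. TGACGTCA was in 1 distal region, upstream of Slc38a3 and in a shared footprint with the added bases, against 0.436% and 0.235%. The CTCF letters were in 1 distal region, against 3.06%. The NRF1 and CEBP letters were in no region of the 7 genes. The 3 AP-1 matches in a shared footprint were in chr14:34354541-34354820 downstream of Glud1, chr3:95901761-95902260 in Car14 and chr5:89123641-89123820 in intron 8 of Slc4a4. The Car14 match lies wholly inside its footprint, and the other two run past the footprint edge. With so few regions these are descriptions, and a match of letters does not show a bound factor.

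Other genes of the pathway were taken by list. Of the ammonia genes reported here, 6 of 6 promoters were open. They were led by Gls2, which encodes a glutaminase, with 8.47 ± 1.59, and Pck1, a gluconeogenic enzyme that uses the carbon of glutamine, with 7.07 ± 0.780, followed by the neutral amino acid transporter gene Slc6a19 with 2.52 ± 0.631 (SD, n = 2 each). Of the sodium-proton exchange genes reported here, 6 of 6 were open as well. Slc9a3r1, whose product NHERF1 anchors NHE3 in the brush border, had 16.5 ± 0.274, well above Slc9a3 itself. The exchanger gene Slc9a8 had 7.23 ± 0.759, and Pdzk1, whose product is another scaffold of the brush border, had 3.80 ± 0.0225.

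In the bicarbonate transport list 6 of 9 were open. Slc4a2, an anion exchanger, had 15.9 ± 1.78 in a region shared with the promoter of Cdk5. The bicarbonate transporter genes Slc4a7 and Slc4a8 had 4.58 ± 0.644 and 4.21 ± 0.465. Slc4a1, Slc4a9 and Slc4a10 had no open promoter. Of the other carbonic anhydrases 6 of 13 were open. Mitochondrial Car5b had 9.72 ± 0.594, Car7 had 7.09 ± 2.70 in a region shared with Nae1, and Car13 had 3.01 ± 1.02. No open promoter was found at Car1, Car3, Car5a, Car6, Car9, Car10 and Car11. Of these 34 genes, 24 were open, against 63.0% of all genes. Among 21 CpG-poor ones 12 had an open promoter, next to 32.0% of CpG-poor genes in all, and among the other 13 it was 12, next to 91.7%.

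**Figure D5:**
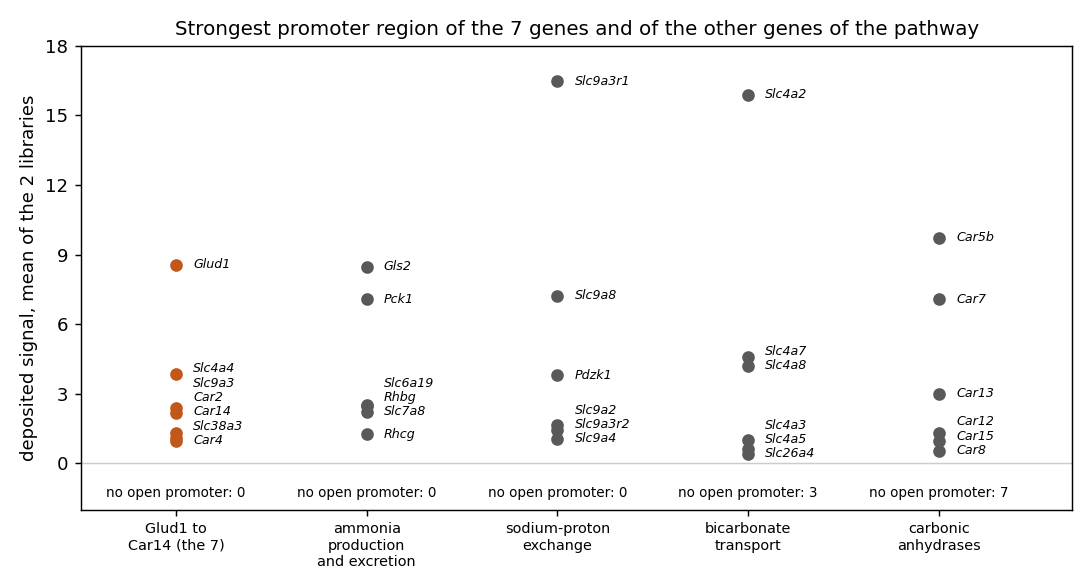
Deposited signal of the strongest promoter region, as the mean of the libraries (vertical axis), for the 7 genes and for the open genes of 4 lists of the pathway, with the number of genes that had no open promoter under each column. The 7 range from 0.984 to 8.56, and the highest values are those of Slc9a3r1 at 16.5 and Slc4a2 at 15.9.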

How the data were processed

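The 4 measured files per library were deposited on assembly mm10, per the file headers. The aligner, peak and footprint callers, their versions and the signal's scaling were not given in the sources used here. The authors' longer and shorter peak lists hold a signal per peak, and 100% of these were whole multiples of a step of 0.00834 in replicate 2 and 0.00827 in replicate 1 (tolerance 0.05 steps), from which tag numbers were inferred. The deposited FDR file lists a q-value up to 0.05 for runs of bases, and the deposited footprint file a constant p-value or q-value level of 0.01. The longer list was used. Peaks of both libraries overlapping by at least 1 base were joined into shared regions, and footprints likewise. TSSs came from GENCODE M21, and sequence from GRCm38.p6, where 11 of 11 start codons of the 7 genes read ATG. CpG-poor means an observed over expected ratio under 0.6 in the 1001 bases around every start. No test across samples was possible with 1 group, so counts stand beside the share over all genes or regions. The text names every promoter region, the 3 strongest distal regions and any region over 2-fold of each gene, and of each pathway list the genes with no open promoter and the 3 strongest. The pathway counts cover 34 genes, and further genes of these pathways are not reported here. Members and lists were chosen with earlier results of these data known. Joining and overlap were tested on simulated data against bedtools. Alternatives were other lists, overlaps, windows, flanks, FDR limits and each library alone. Tools were Python 3.11.15, numpy 2.4.6, pandas 2.3.3 and pysam 0.24.0. Depth is known only by inference, which assumes that the signal is scaled to tags per M.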

Additional observations from a re-analysis of the deposited data

How the results depend on the processing

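All 7 promoters stayed open in each library alone, with an overlap of 50% of each peak, with promoter windows of 100 and 2000 bases, in the stronger 50% of peaks and at the gene 5′ end alone. In the shorter lists 5 of 7 did, without Slc38a3 and Car4, against 58.9% of all genes. The median promoter signal was 1.87 to 2.38 with either library left out, 2.18 with all data, and 2.61 with a window of 2000 bases, which takes in other sites of Car4, Car14 and Slc38a3. The 58 distal regions became 32 in the shorter lists, 37 in the stronger 50% of peaks, 38 in the gene body alone and 104 with a flank of 50 kb. Per gene, the median of the 7 was 6 with the main settings, against 2 for all genes. It was 4 against 1 in the shorter lists and 5 against 1 in the stronger 50%. In the body alone it was 3 against 1, and at 50 kb 11 against 6. Taken as a ratio, the median of the 7 was closest to that of all genes at 50 kb. With a library left out the count was 66 to 89. Shared footprints numbered 106, and 193 to 213 in a single library. Both libraries listed 12733 bases at an FDR of 0.001, against 22125 at 0.05, and a single library listed 27063 to 35810. The remaining 23 of 33 alternatives of these summary values, the ratio between libraries among them, stayed within 1.5 times of a count or 1 SD of a value. No paired analysis was possible because there is 1 group.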

Other observations

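The letters of CTCF in a shared footprint, as in the region upstream of Slc38a3, were found in 1992 shared regions. Replicate 2 over replicate 1 gave them a median log2 ratio of 0.89, against -0.01 for all shared regions. Of the 1992 regions 95.0% were higher in replicate 2, and 40.8% were higher by more than 2-fold, against 7.64% of all shared regions. The ratio of 1.17 at the Slc38a3 region lies near this median. What separates the libraries at these sites was not tested.

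RefSeq places a further Slc4a4 start at base 88793858 of chromosome 5, upstream of the GENCODE gene. Neither library had a peak within 500 bases of it.

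Peaks counted here as found in a single library were mostly weak, with a median signal of 0.550 in replicate 2 and 0.562 in replicate 1. Of these, 3 in replicate 2 and 0 in replicate 1 lay in a promoter window of the 7 genes, all 3 at the upstream starts of Slc4a4. Replicate 2 alone had 11 in the 7 windows, with a highest signal of 1.32. For replicate 1 alone 31 were counted, with a highest of 1.64, of which 9 lay in the Car14 window and 9 in that of Slc4a4. These counts leave out some peaks of the Car14 window, which held 11 in replicate 1 alone.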
